A study of Mus musculus with 8 samples.

Results

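The 10 genes described here encode cytokine receptor chains, namely Il2ra, Il2rb, Il7r, Il4ra, Il6ra, Il6st, Il21r, Il27ra, Ifngr1 and Il5ra. These 10 of the 21728 protein-coding genes on the autosomes and the X chromosome were chosen by name, as receptors through which lymphocytes sense cytokines. The choice was made with earlier results of these data known, which limits every comparison with all genes below. Every CpG in each gene and in 10 kb on either side of it was taken (mm10 coordinates, GENCODE release 21 gene models). Levels of CpGs come from whole genome oxidative bisulfite sequencing, in which oxidation before bisulfite leaves 5-methylcytosine as the base read as methylated. The spleens of untreated C57BL/6J mice of 6 to 8 weeks gave resting B cells, taken as CD43-, and naive CD4+ T cells, with females and males kept apart, which makes 4 groups. Where 4 levels are given in a row without labels, they belong to B and T cells of females, then to B and T cells of males. The T cells had been sorted as CD62L high, CD44 low and CD25-negative, and because CD25 is the protein encoded by Il2ra, the gate itself selected on 1 of the 10 genes. Each group was labelled as 2 samples that share 1 table, and the sources used here do not state whether a table holds 1 or both of them. The label of each table ends in the replicate number of 1 of its 2 samples, which was not taken as settling this. Each table was taken as 1 library, so 4 libraries in all entered the comparisons and no spread between replicates of a group could be measured. According to the study's methods, a replicate pooled several mice.

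Cytokine receptors of this kind work as chains that assemble on the cell surface and pass the signal to Janus kinases and STAT factors inside the cell. Il2ra and Il2rb are the alpha and beta chains of the interleukin-2 receptor, Il7r the alpha chain that gives naive T cells their survival signal, and Il4ra and Il21r the chains that bind interleukin-4 and interleukin-21. Il6ra binds interleukin-6 and Il6st (gp130) is the chain that signals for it and for interleukin-27 together with Il27ra. Ifngr1 binds interferon gamma, and Il5ra binds interleukin-5, which acts on eosinophils and on some B cells. Methylation of CpGs at gene starts and at distal regulatory elements usually runs against their activity, and such elements typically lose methylation in the cell type that uses them.

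Each library listed between 19595981 and 20197082 CpGs, every one with at least 5 reads, and the median depth of an autosomal CpG was 14 to 17 reads. A level is the methylated share of all reads over the CpGs that all 4 libraries listed, and its 95% Wilson interval covers counting error only. The labelled cell types were checked on marker promoters. Of 7 B cell genes, 5 were called lower in B cells and none lower in T cells, and of 14 T cell genes 9 were called lower in T cells and none lower in B cells. Both CD8 T cell promoters and Nkg7 of the natural killer list were also called lower in T cells (Cd8b1 at 29.2% and 29.7% in the T libraries against 88.5% and 91.6% in the B libraries), while Ncr1 and Klrb1c lay between 78.9% and 90.7% in every library. No promoter of the 4 myeloid, 2 plasma cell or 2 regulatory T cell genes was called. By the adjusted p alone, which 17.7% of all promoters passed with the higher level in B and 2.2% with it in T, those of Lyz2 (B minus T of -16.8 points), Ctla4 (5.74), Itgam (12.2 in females and 13.9 in males) and the X-linked Foxp3 (11.8 in females and 26.7 in males) differed. Mitochondrial CpGs read as methylated in 0.271% and 0.727% of reads in female and male B cells and in 0.0733% and 0.0709% in female and male T cells.

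Here 5 stretches of 300 bases are shown first. Each covers all or part of the run of CpGs with the widest gap between the cell types in its gene and direction. A run is at least 5 neighbouring CpGs that differed by 30 percentage points or more in both sexes, and runs whose stretch would cover an annotated UTR were passed over. The runs of Ifngr1, Il7r and Il27ra are longer than 300 bases, and there the stretch covers the part with the most CpGs. The stretches were read from the GRCm38 assembly (mm10) on the strand of the gene, 5′ to 3′, with every CpG in capitals. The first lies in an intron of Il6ra at chr3:89875133-89875432 on the minus strand, 37.9 kb from the gene start.
Il6ra: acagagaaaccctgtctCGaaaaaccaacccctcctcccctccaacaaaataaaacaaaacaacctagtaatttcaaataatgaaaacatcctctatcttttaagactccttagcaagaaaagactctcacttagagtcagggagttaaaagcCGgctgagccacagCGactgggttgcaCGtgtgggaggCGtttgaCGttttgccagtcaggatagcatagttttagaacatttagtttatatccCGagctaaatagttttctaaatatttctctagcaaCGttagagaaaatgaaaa
The stretch of Ifngr1 is intronic as well, at chr10:19598136-19598435 on the plus strand, 6.34 kb from the start.
Ifngr1: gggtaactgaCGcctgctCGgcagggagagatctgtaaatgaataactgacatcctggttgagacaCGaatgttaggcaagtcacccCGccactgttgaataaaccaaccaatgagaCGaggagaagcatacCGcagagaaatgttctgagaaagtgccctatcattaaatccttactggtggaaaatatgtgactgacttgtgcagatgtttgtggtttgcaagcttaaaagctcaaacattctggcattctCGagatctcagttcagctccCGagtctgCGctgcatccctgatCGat
That of Il7r lies in an intron at chr15:9523691-9523990 on the minus strand, 6.34 kb from the start.
Il7r: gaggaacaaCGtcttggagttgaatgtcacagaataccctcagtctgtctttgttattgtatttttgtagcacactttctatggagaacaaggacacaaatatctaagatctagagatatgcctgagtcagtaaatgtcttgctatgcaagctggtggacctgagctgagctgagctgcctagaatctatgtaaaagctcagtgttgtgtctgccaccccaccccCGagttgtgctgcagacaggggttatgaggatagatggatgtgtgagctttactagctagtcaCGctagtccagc
That of Il27ra lies mostly inside the promoter window, at chr8:84041558-84041857 on the minus strand, centred 0.881 kb from the start.
Il27ra: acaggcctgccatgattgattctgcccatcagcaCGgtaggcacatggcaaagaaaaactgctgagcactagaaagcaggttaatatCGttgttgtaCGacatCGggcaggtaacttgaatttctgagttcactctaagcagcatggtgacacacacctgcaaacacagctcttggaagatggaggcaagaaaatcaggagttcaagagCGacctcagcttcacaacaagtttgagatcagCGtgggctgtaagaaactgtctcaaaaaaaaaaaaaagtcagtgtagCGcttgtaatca
The last stretch had the higher level in T cells. It belongs to Il5ra and lies 1.40 kb upstream of the gene start, at chr6:106750285-106750584 on the minus strand.
Il5ra: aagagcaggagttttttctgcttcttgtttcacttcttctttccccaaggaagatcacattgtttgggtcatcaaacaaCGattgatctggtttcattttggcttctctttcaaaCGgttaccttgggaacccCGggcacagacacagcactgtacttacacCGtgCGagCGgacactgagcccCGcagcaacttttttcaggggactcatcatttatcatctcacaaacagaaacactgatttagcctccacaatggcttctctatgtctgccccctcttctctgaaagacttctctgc

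In the Il6ra stretch the 8 CpGs were methylated at 88.2% to 100% in female B and 88.9% to 100% in male B cells, and at 0% to 7.69% in female T and 0% to 11.1% in male T cells. Of these, 6 were at 0 in both T libraries. All 10 CpGs of the Ifngr1 stretch were at 0 in female T cells, over 229 reads, which allows a share of up to 1.31%, and 9 of them were at 0 in male T cells, whereas they spanned 55% to 95.2% in female B and 54.5% to 90.9% in male B cells. The CpG at base 274 had the lowest level in both B libraries. The Il7r stretch is poor in CpGs and holds 3, which pooled to 82.0% and 83.0% in female and male B cells and to 3.56% and 7.69% in female and male T cells. In the Il27ra stretch 7 CpGs pooled to 79.8% in female B, 13.1% in female T, 74.8% in male B and 9.48% in male T cells. The order was the opposite in Il5ra, where the 7 CpGs pooled to 6.74% in female B, 65% in female T, 7.20% in male B and 69.4% in male T cells. Within it the T cell level climbed along the strand, from 19.4% and 21.4% at base 80 to 90.9% and 95.2% at base 185 in females and males. No library of one cell type overlapped one of the other in the pooled level of any of the 5 stretches, which is a consequence of how they were picked.

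**Figure D1:**
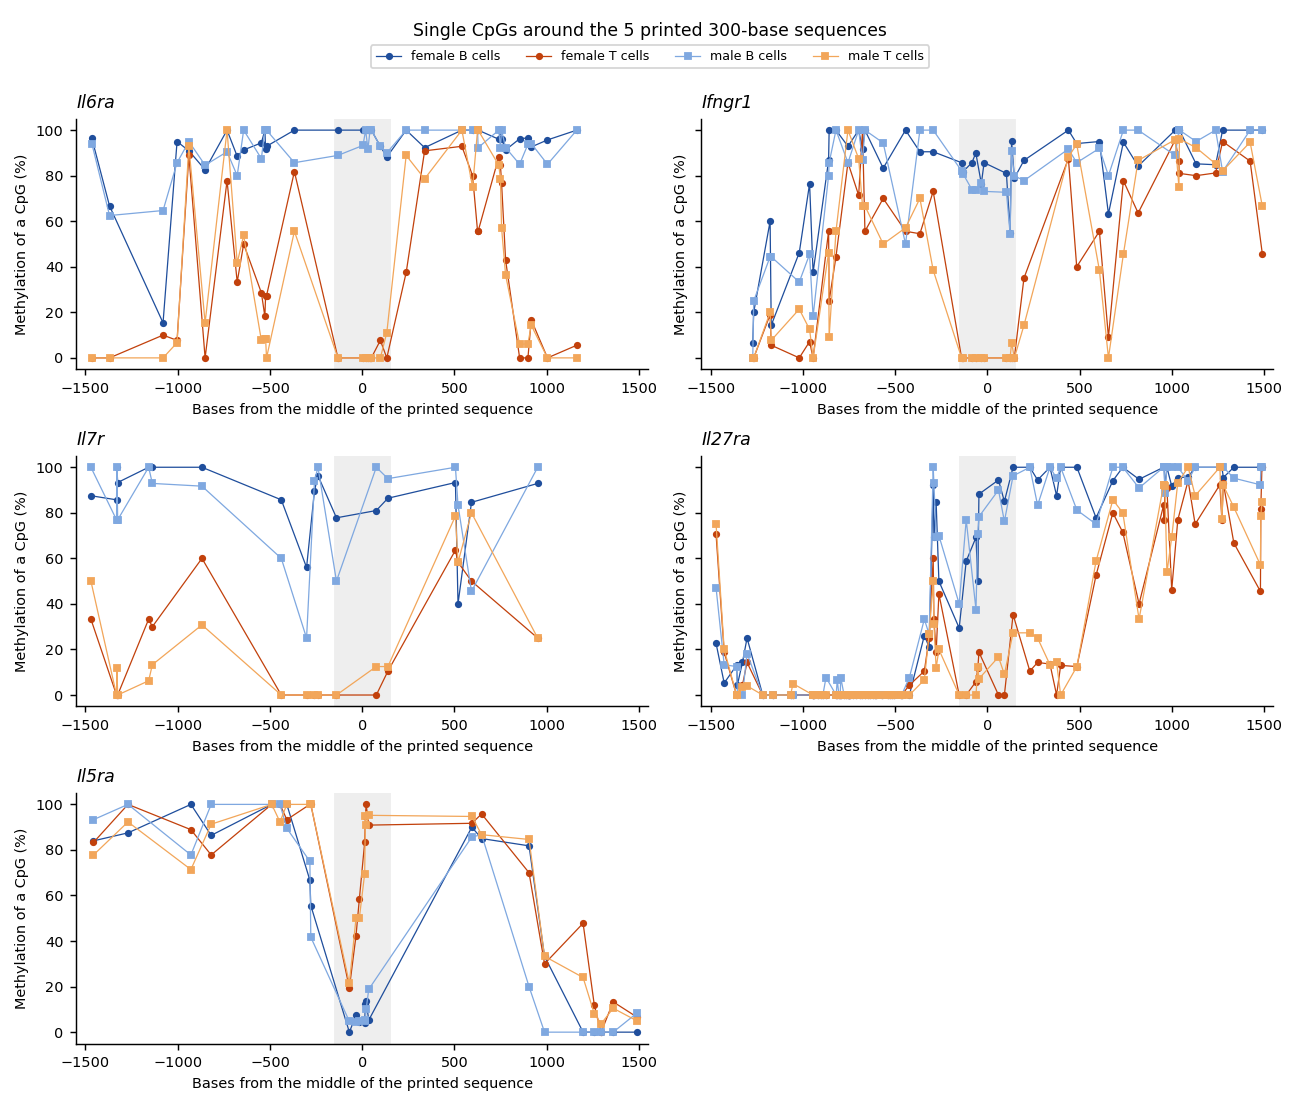
Methylation of single CpGs (per cent of reads, y axis) within 1500 bases of the middle of the 5 printed stretches (x axis, along the gene's strand, grey band for the stretch) in female and male B cells (blue) and T cells (orange). The Il6ra and Ifngr1 bands hold T cell CpGs at or near 0 with B cell CpGs above 50%, and the Il5ra band shows the reverse order.

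Short letter patterns that transcription factors of lymphocytes are known to bind were counted on both strands in these stretches and in 4 more, those of Il2rb, Il4ra, Il6st and Il21r, all with the higher level in B cells. The RUNX pattern TGTGGT was present in 3 of the 8 stretches higher in B (Il6st, Il21r and Ifngr1) and not in the 1 higher in T. The central 300 bases of the 1530528 tested 1-kb tiles held it in 21%, and those of the tiles called higher in B cells anywhere in the genome in 27.9%. The STAT pattern TTCNNNGAA occurred in the stretches of Il2rb, Ifngr1 and Il5ra against 10.2% of all tiles. Of the tiles called higher in B it was in 9.41%, and of those called higher in T in 9.59%. The pattern CAGGAAG of ETS factors was in that of Il4ra alone (10.4% of all tiles, 15.1% of those higher in B), and the EBF pattern CCCNNGGG in that of Il2rb, with 6.02% of all tiles and 5.84% of tiles called higher in B. No stretch held the pattern GAGGAAGT of PU.1, present in 1.87% of all tiles, or the pattern CTTTGAT of TCF/LEF factors, present in 5.40%. The FOXO pattern TGTTTAC, found in 4.34% of all tiles, was also in none of the 9 stretches. The same was true of the GATA pattern AGATAA, found in 17.1% of tiles, and of the E protein pattern CAGCTG in 12.6%. These patterns do not contain one another, and a match is a description of letters only.

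The promoter comparison asked whether the starts of the receptor genes differ between B and T cells. A promoter reaches 1 kb to either side of a gene's start, and a region was called when edgeR's quasi-likelihood test gave a Benjamini-Hochberg adjusted p under 0.05 over all regions of its kind and the mean level of B cells differed from that of T cells by at least 20 percentage points. Il2rb and Il7r were called, both higher in B cells, which is 2 of 10 where 0.957% of the 20474 tested promoters were called higher in B and 0.41% higher in T. By the adjusted p alone all 10 passed, 9 of them higher in B, where 17.7% of all promoters passed higher in B and 2.2% higher in T. B minus T had a median of 5.15 points over the 10 and 0.969 over all promoters.

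Il2rb (chr15:78479256-78495271, minus strand) had the most methylated promoter of the set in every library but female T, where that of Il5ra was higher (44.1%). The levels of Il2rb were 79.5% in female B, 37.4% in female T, 75.1% in male B and 43.2% in male T cells. Both B libraries lay above both T libraries, an order that the minimum of 20 points makes likely. The difference was 37.0 points, 42.1 in females and 31.9 in males (adjusted p = 1.01e-22, edgeR quasi-likelihood test). Inside it, 5 CpGs between chr15:78495009 and 78495232 had 76.1% and 57.1% in the B libraries of females and males and 1.46% and 0% in the T libraries, where 0 of 91 reads allows up to 3.30%. Il7r (chr15:9505788-9530176, minus strand) had 47.5% in female B, 25% in female T, 43.3% in male B and 19.9% in male T cells. That is a difference of 22.9 points (adjusted p = 6.53e-06, edgeR). Its promoter holds 12 CpGs in all 4 libraries, with 150 reads in the shallowest, so its intervals are up to 15.7 points wide. The difference of Il7r was 12.3 points with 500 bases on either side and 15.2 with 2 kb, and without the sex term the promoter was no longer called. With any 1 library left out, which leaves no room for a sex term, Il7r was not called (20.4 to 25.5 points), and Il2rb was called only without female B (34.8 points) and not without any of the other three libraries (34.1 to 39.9 points).

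The other promoters are given by their CpG content. The 5 genes whose 2-kb promoter had an observed over expected CpG ratio of 0.139 to 0.244 (Il2ra, Il2rb, Il7r, Il21r and Il5ra, with a median of 0.478 over all promoters) included the 4 with the widest differences and Il21r. Il2ra (chr2:11642807-11693193, plus strand), whose protein was used as a sort marker, had 32.1% in female B, 12.8% in female T, 25.3% in male B and 10.2% in male T cells. Its difference of 17.2 points passed the test (adjusted p = 4.94e-06, edgeR) but not the 20 points, and it reached 21.3 with 500 bases on either side. Il21r (chr7:125603429-125633570, plus strand) lay between 5.99% and 11.5% in all 4 libraries. Its difference of 4.25 points (adjusted p = 0.0430, edgeR) turned to -1.98 with 500 bases on either side and was 14.4 with 2 kb. It was 0.850 with 10 reads per CpG in every library and 9.09 with unweighted CpG means. The remaining 5, with ratios of 0.414 to 0.803, were low in every library except Il27ra (chr8:84030294-84042589, minus strand), which had 22.9%, 14.1%, 29.5% and 12.7%. Its difference of 12.8 points was 0.869 with 500 bases on either side and 21.7, past the minimum, with 2 kb. Il4ra, Il6ra, Il6st and Ifngr1 lay between 0.657% and 10.2%, with B minus T differences of 1.62 to 5.70 points. These depended on the window and on other settings. With 500 bases on either side, Il6ra went from 5.70 to 0.366, Il6st from 1.62 to 0.244 and Ifngr1 from 4.61 to 1.25 points. With 2 kb, Il4ra went from 3.40 to 11.9 and Il6st to 6.38, while Il4ra was at 2.11 without male B. Once levels were centred on library medians, Il4ra was at 1.19, Il6ra at 3.49 and Ifngr1 at 2.39. Unweighted CpG means gave 1.60 for Il4ra and 2.43 for Ifngr1, and 10 reads per CpG gave 0.324 for Il6st. Differences of this size are to be read beside those of all autosomal promoters under 20% in every library. Of these, 6982 had a CpG ratio of at least 0.6, as Il6ra and Il6st have, and their median difference was 0.911 points, with 1906 past the adjusted p on the B side and 28 on the T side. The other 4021, among them Il4ra and Ifngr1, had a median of 1.33 points, with 796 and 52. The mitochondrial levels of the B libraries were higher as well. Whether that background has a part in them was not tested. Il5ra (chr6:106710357-106749037, minus strand) was the single promoter with the lower level in B cells, at 29.1% in female B, 44.1% in female T, 19.2% in male B and 30.8% in male T cells. The male T level was close to the female B level, and the difference of -13.3 points (adjusted p = 0.0111, edgeR) depended on the libraries and the window. It was -6.69 without female T, -8.34 without male B, -18.3 without female B and -19.9 without male T cells, and -21.2 with 2 kb on either side.

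**Figure D2:**
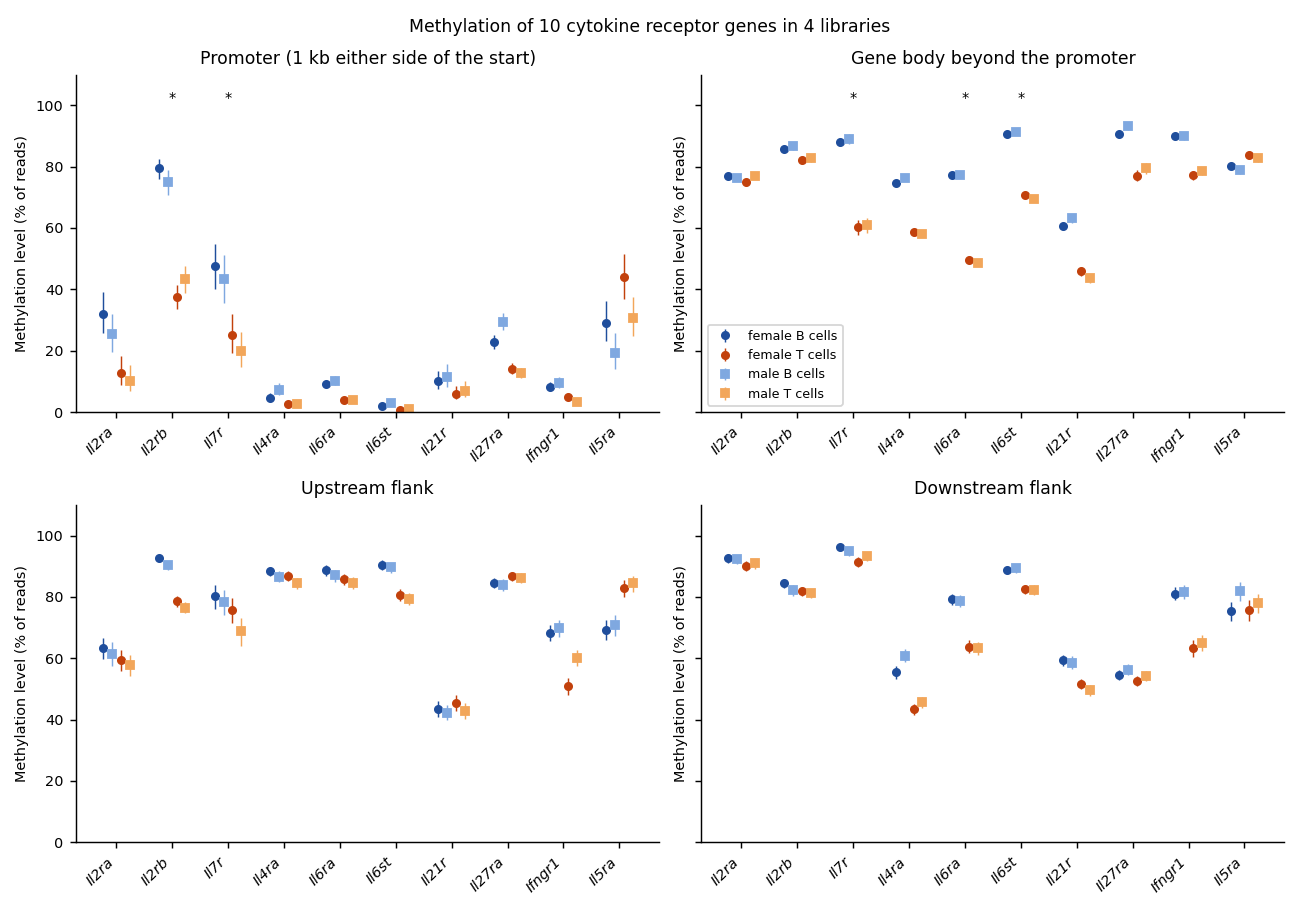
Methylation level (per cent of reads, y axis) of the promoter, gene body and both flanks of the 10 genes (x axis) in the 4 libraries, circles for females and squares for males, bars for 95% Wilson intervals and asterisks for called regions. Promoters of Il2rb and Il7r and bodies of Il7r, Il6ra and Il6st carry asterisks, and Il5ra is the single gene with the T cell points on top in promoter, body and upstream flank.

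Gene bodies were taken from the edge of the promoter window to the gene end. Il6ra, Il7r and Il6st were called, all higher in B cells, which is 3 of 10 where 1.26% of 19898 gene bodies were called higher in B and 0.116% higher in T. The median difference was 15.4 points over the 10 and 1.28 over all gene bodies. Il6ra (chr3:89864059-89913196, minus strand) had 77.3% in both female and male B cells, 49.7% in female T and 48.5% in male T cells, over 530 CpGs. That is a difference of 28.2 points (adjusted p = 6.50e-16, edgeR). Il7r had 88.1% in female B, 60.2% in female T, 89.0% in male B and 60.9% in male T cells, a difference of 28.0 points (adjusted p = 4.65e-13, edgeR). Il6st (chr13:112464070-112510086, plus strand) had 90.6%, 70.8%, 91.2% and 69.4%, and its 20.8 points (adjusted p = 2.45e-16, edgeR) fell to 19.3 once levels were centred on library medians, under the minimum. Both B libraries of these 3 genes lay above both T libraries, and the sexes lay close together within each cell type.

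At an adjusted p under 0.05 without the 20 points, 9 of the 10 bodies passed, but 39.3% of all gene bodies passed it higher in B and 4.41% higher in T. B cells were 12.1 to 17.2 points higher in Il4ra (chr7:125552120-125579474, plus strand), Il21r, Il27ra and Ifngr1 (chr10:19591949-19610229, plus strand). In each of these both B libraries lay above both T libraries, an order whose share over all gene bodies is not given here. Il2rb differed by 3.66 points and Il5ra by -3.65, and Il2ra, the longest of the genes, had 76.9% in female B, 74.9% in female T, 76.4% in male B and 76.9% in male T cells, which was not distinguishable (difference of 0.774 points, adjusted p = 0.581, edgeR).

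No flank was called. Over all genes, 0.821% of 21428 upstream flanks were called higher in B and 0.117% higher in T, and of 21464 downstream flanks 0.713% and 0.0839%. At an adjusted p under 0.05 without the 20 points, 5 upstream and 6 downstream flanks of the 10 passed, and all but one were higher in B cells. Over all genes, that threshold let through 21.2% of upstream flanks higher in B and 3.95% higher in T, and 22.5% and 3.82% of downstream flanks. Ifngr1 differed on both sides, with 68.3% in female B, 50.8% in female T, 69.8% in male B and 60.2% in male T cells upstream and 81.1%, 63.2%, 81.7% and 64.9% downstream. Upstream of Il2rb the levels were 92.7%, 78.5%, 90.4% and 76.5%. The exception was the upstream flank of Il5ra, with 69.3%, 82.8%, 70.9% and 84.4%.

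To place the differences, the windows were divided into 1-kb tiles, each with at least 5 CpGs. Of the 421 tested tiles, 104 were called higher in B cells and 5 higher in T cells, that is 24.7% and 1.19%. Over the whole genome 2.36% of tiles were called higher in B and 0.812% higher in T, and over the 891851 tiles in the windows of all protein-coding genes 3.12% and 0.977%. By the adjusted p alone 192 were higher in B and 15 higher in T, where 7.15% and 2.17% of all tiles passed. All 109 called tiles had the same sign in both sexes, and 96 differed by at least 20 points in each. A call rests on the mean of both sexes, so the shared sign is in large part a result of the selection. By share of tested tiles, Il6ra came first with 29 of 64, followed by Il7r with 9 of 22, Il21r with 15 of 46 higher in B, Il6st with 18 of 60, Ifngr1 with 8 of 31 and Il4ra with 11 of 46. Il2rb (5 of 35) and Il2ra (7 of 56) had fewer, and Il27ra had 2 of 31 higher in B and 1 higher in T. Il5ra had none higher in B and 3 of 30 higher in T.

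**Figure D3:**
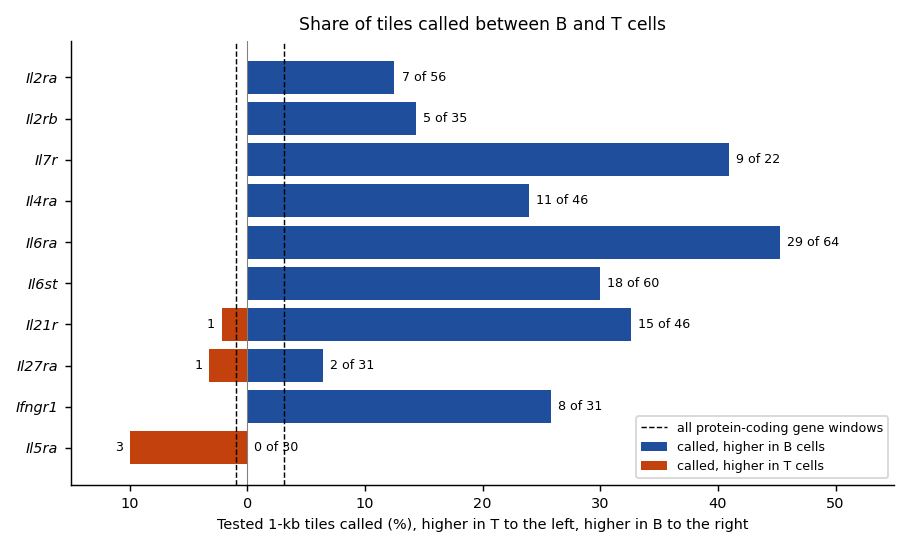
Share of the tested 1-kb tiles in each gene's window (per cent, x axis, one bar pair per gene) called higher in B cells (blue, to the right) and higher in T cells (orange, to the left), with dashed lines for the shares over the windows of all protein-coding genes (3.12% and 0.977%). Il6ra and Il7r reach 45.3% and 40.9% on the B side, and Il5ra has bars on the T side alone.

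By position, 52 of the 109 called tiles lay in introns without an exon (132 tested), 28 overlapped an exon (121 tested), 7 touched the promoter (27 tested), 10 lay upstream (65 tested) and 12 downstream (76 tested). None lay in one of the neighbouring protein-coding genes She, Gtf3c1, Palm3, Rln3 and Il31ra, which reach into the windows. In the 104 tiles higher in B, the median level was 84.1% in B and 39.4% in T cells. T cells were intermediate in most of them, with both T libraries between 20% and 80% in 76 tiles and both under 20% in 23. Called and other tiles had a median of 10 CpGs each, and medians of 19.9% and 18.2% of their bases were masked as repeats in the reference. In bulk DNA an intermediate level can come from a mixture of cells or from unlike alleles within a cell, which cannot be told apart. In a tile, low CpGs beside high ones can give it as well, and the part of each was not tested. The Il2rb tile 7.23 kb upstream had 42.3% in female T and 38.6% in male T cells. A run of 5 CpGs inside it had 12.7% and 16.1%.

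**Figure D4:**
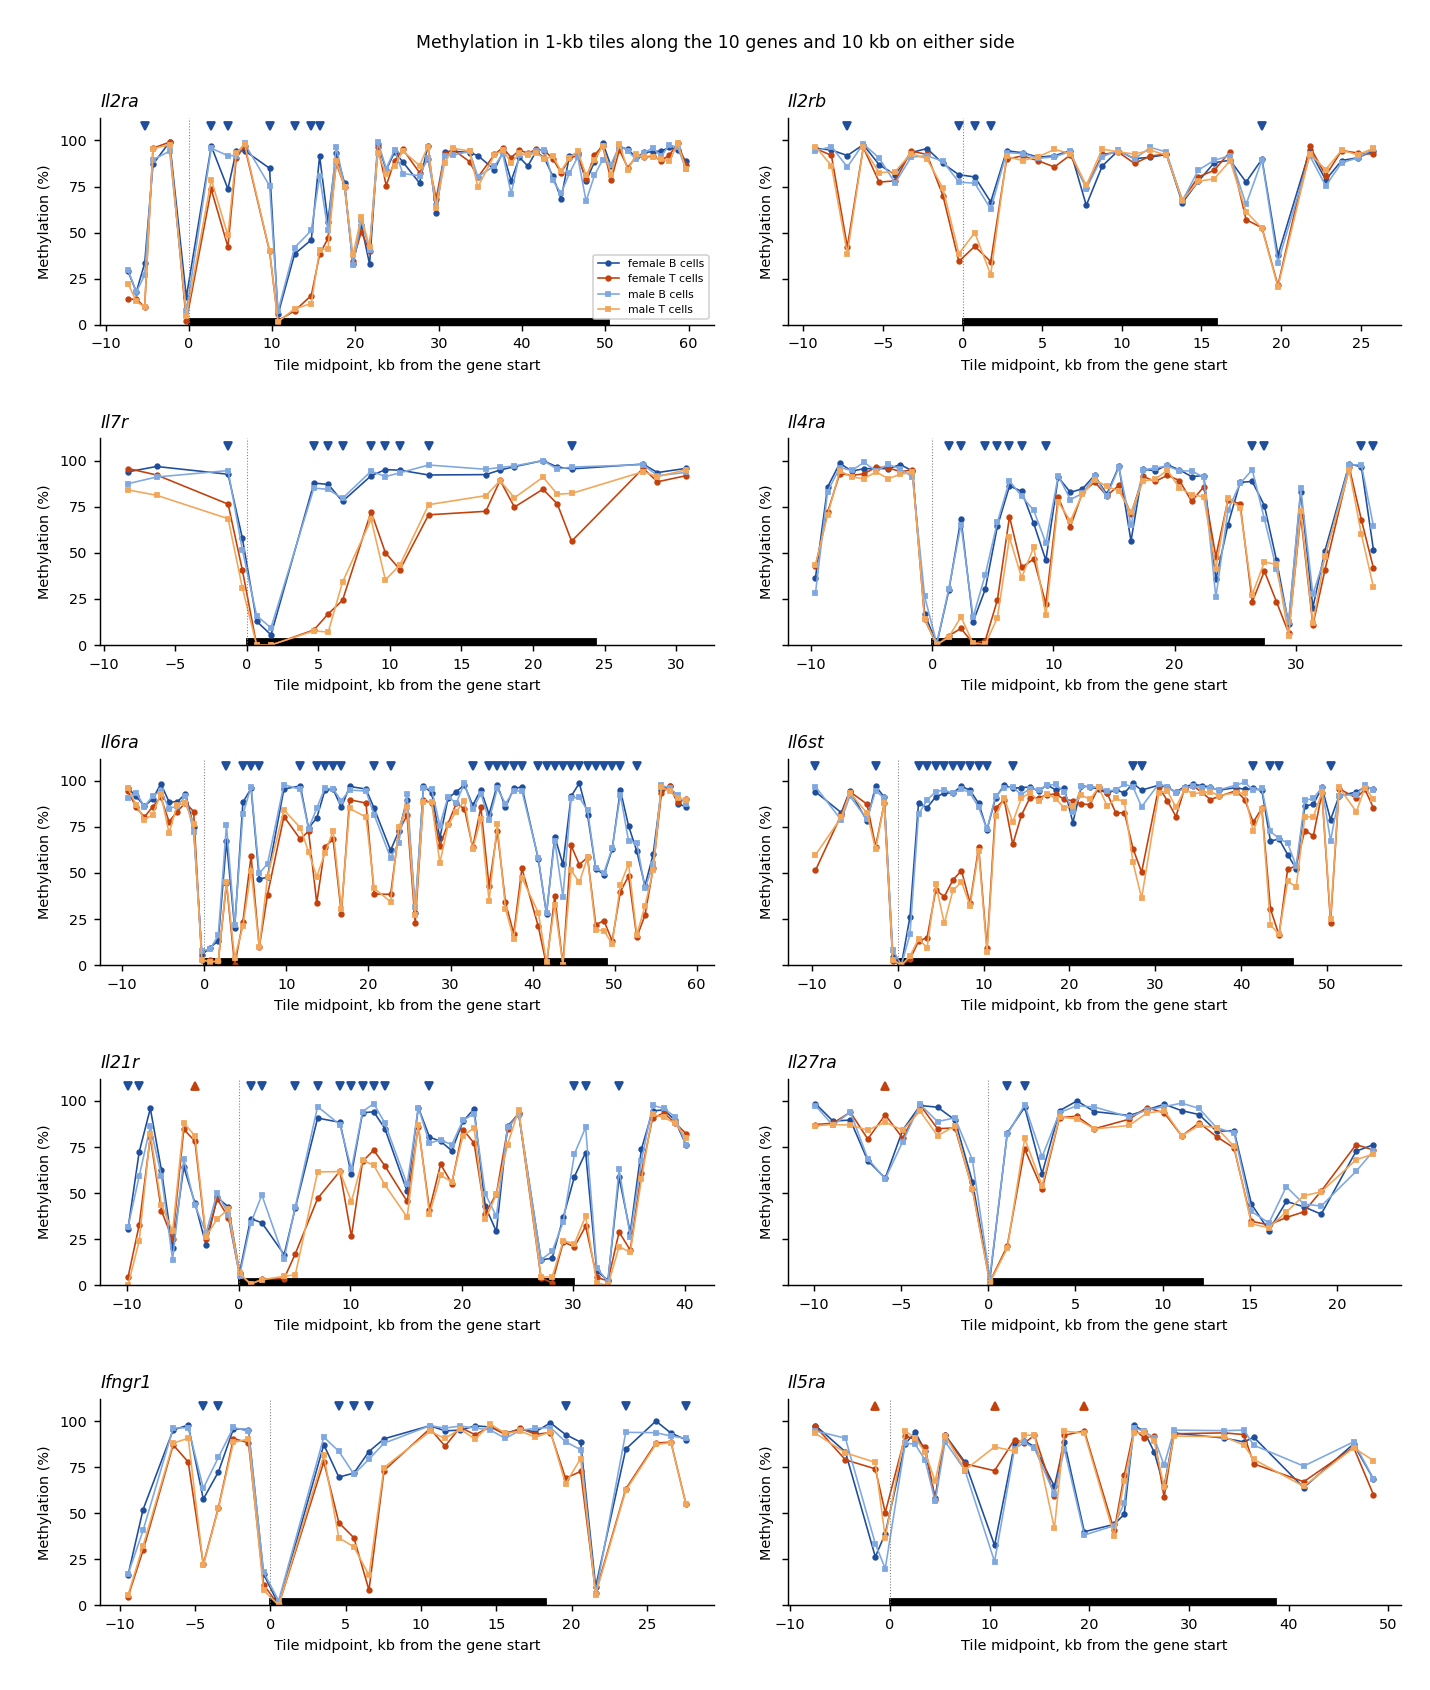
Methylation (per cent of reads, y axis) in tested 1-kb tiles from 10 kb before to 10 kb after each gene (x axis, kb from the gene start, black bar for the gene) in the 4 libraries, with blue triangles over tiles called higher in B cells and orange ones over those called higher in T cells. Lines join neighbouring tested tiles, and they part widest within the first 10 kb of Il7r and Il6st and over the 3′ part of Il6ra.

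In Il6ra the called tiles formed 4 joined stretches, with 6 single tiles besides. The longest ran for 11 kb over the 3′ end of the gene and beyond, from chr3:89862001 to 89873000, with 64.9% in female B, 26.7% in female T, 62.5% in male B and 24.1% in male T cells. The next, of 5 kb, held the tile with the largest difference of all 10 windows, an intronic one 37.7 kb from the start with 95.8% in female B, 17.1% in female T, 94.4% in male B and 14.4% in male T cells, 79.3 points apart (adjusted p = 4.33e-85, edgeR). The B cell level itself was not uniform, since a tile 41.7 kb from the start had 27.8% and 28.2% in female and male B cells with 0% (0 of 176 reads, which allows up to 1.70%) and 1.69% in female and male T cells. Nearer the start, stretches of 4 kb and 3 kb were called, and a run of 7 CpGs at chr3:89908603-89908875 had 87.3% in female B, 8.13% in female T, 81.0% in male B and 5.00% in male T cells.

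In Il6st, which shares the interleukin-6 receptor with Il6ra, the stretch began just past the promoter and covered 9 kb, from chr13:112466001 to 112475000. It had 88.0% in female B, 27.5% in female T, 87.6% in male B and 25% in male T cells. It holds the longest run of differing CpGs in the 10 windows, 29 CpGs over 1481 bases at chr13:112466224-112467704, with 87.5%, 10.2%, 85.1% and 7.91%. The top tile, 3.43 kb from the start, differed by 75.3 points (adjusted p = 2.78e-73, edgeR). Further called tiles stood at 27.4 and 28.4 kb from the start and, over exons at the 3′ end, at 41.4, 43.4 and 44.4 kb. In the flanks of Il6st, 2 tiles were called upstream and 1 downstream. A run of 7 CpGs 9.52 kb upstream had 93.7%, 23.5%, 95.7% and 30.9%.

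In Il7r the low level at the start reached further into the gene in T cells. The stretch around the start in which 5 neighbouring CpGs pooled to under 20% ran to 2115 bases into the gene in B cells (13 CpGs). In T cells it ran to 3092 bases (17 CpGs). In female B cells alone it began 208 bases inside the gene. Past a stretch with too few CpGs, 3 neighbouring tiles from chr15:9523001 to 9526000 had 84.1% in female B, 18.0% in female T, 83.0% in male B and 15.8% in male T cells. The tile 4.68 kb from the start, over an exon, had 87.8%, 8.16%, 85.1% and 7.69%, a difference of 78.5 points (adjusted p = 6.36e-29, edgeR), on 49 reads in the shallowest library. Beyond these, the next 3 tested tiles were called too. At 8.68 kb the T cell levels were 72.3% in females and 68.1% in males, and at 9.68 and 10.7 kb they were lower again, between 35.3% and 50%, while B cells stayed at 91.3% to 95.1% in all 3.

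The 2 neighbours on chromosome 7, Il4ra and Il21r, showed the same wider low stretch in T cells. At Il4ra it ended 1090 bases into the gene in B cells and 5482 bases in T cells (61 and 129 CpGs), and at Il21r 357 and 5520 bases (18 and 56 CpGs). Each library on its own gave 5393 to 5559 bases in T cells and 357 to 1090 bases in B cells for these genes. The low stretch also ended further inside Il6ra in T cells, at 687 bases in B and 2470 in T cells. In Il6st it ended at 1394 and 1842 bases. Il27ra had 566 and 1471 bases, but 588 in female T cells alone. Il2rb had such a stretch in T cells only, and in Il5ra it ended at 324 bases in both cell types. The Il4ra tile 2.38 kb from the start had 68.6% in female B, 9.01% in female T, 65.3% in male B and 15.3% in male T cells. Its largest difference lay at the other end of the gene, in a tile over an exon 26.4 kb from the start with 88.7%, 23.3%, 95% and 27.3%, 66.5 points apart (adjusted p = 2.66e-32, edgeR). In Il21r the tile 1.07 kb from the start had 36.2% and 33.6% in female and male B cells and 0.568% and 0.797% in female and male T cells, although the promoter itself was low in all 4 libraries. Its most different tile lay 31.1 kb from the start, just past the gene end, with 72.0% in female B, 32.1% in female T, 85.7% in male B and 37.5% in male T cells (adjusted p = 6.15e-08, edgeR).

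In Ifngr1, Il27ra, Il2rb and Il2ra the joined tiles covered 3 kb at most. In Ifngr1, 3 tiles from chr10:19596001 to 19599000 had 76.2% in female B, 25.7% in female T, 77.2% in male B and 26.3% in male T cells, the last of them with a difference of 69.0 points (adjusted p = 1.53e-63, edgeR). The low stretch at its start spanned 2190 bases with 67 CpGs in both B libraries and in male T cells, and 3552 bases with 73 CpGs in female T cells. In Il27ra 2 tiles next to the start were called, and that at 1.09 kb had 82.5%, 21.3%, 81.8% and 20.1% (adjusted p = 1.17e-50, edgeR). In Il2rb, besides the 3 kb around the start, a tile 7.23 kb upstream had 91.8% in female B, 42.3% in female T, 85.6% in male B and 38.6% in male T cells (adjusted p = 5.21e-41, edgeR). Another called tile lay in the downstream flank of Il2rb. In Il2ra 5 of the 7 called tiles lay in introns, the most distant 15.7 kb from the start with 91.5%, 38.2%, 80.6% and 40.8% (adjusted p = 8.19e-10, edgeR). No run of 5 differing CpGs was found in Il2ra, and a tile 10.7 kb from its start was at most 7.42% in all 4 libraries.

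The level was higher in T cells in 5 tiles. Those of Il5ra lay 1.46 kb upstream of the start and 10.5 and 19.5 kb into the gene. The upstream tile had 26.4% in female B, 74.1% in female T, 33.5% in male B and 77.6% in male T cells (adjusted p = 3.18e-22, edgeR). The tile at 19.5 kb, in an intron, had 40%, 94.7%, 38.2% and 93.5% (adjusted p = 5.53e-21, edgeR), and that at 10.5 kb 32.6%, 73.1%, 23.8% and 86.0% (adjusted p = 1.73e-14, edgeR). The tile upstream of Il21r had 44.7%, 78.2%, 43.4% and 81.0% (adjusted p = 8.63e-11, edgeR), 3.93 kb from the start and within the same window as 15 tiles of the opposite direction. The tile 5.91 kb upstream of Il27ra had 58.1%, 92.5%, 57.7% and 88.5% (adjusted p = 1.06e-16, edgeR).

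Females and males were compared in the same fits. No promoter, gene body, flank or tile of the 10 genes was called between the sexes or passed an adjusted p under 0.05 in edgeR, with 18 of the 421 tiles at an unadjusted p under 0.05 and a largest difference of 16.3 points. Over the genome 0.0865% of tiles were called between the sexes. A fit with a term for a sex difference in B minus T has 1 library per sex and cell type, so it takes its spread from the difference between the sexes. It called 0.0017% of all tiles and none of the 421, of which 12 had an unadjusted p under 0.05 in edgeR, and this does not show that the sexes are alike. The widest gap between the B minus T differences of the sexes in a tile was 25 points, in the downstream flank of Il4ra.

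A list of 34 other cytokine receptor and signalling genes was compared as well, termed pathway genes here although not all belong to the same pathways. Of these, 3 promoters (2 higher in B, 1 higher in T) and 4 gene bodies (all higher in B) were called, beside 0.957% and 0.41% of all promoters higher in B and in T and 1.26% and 0.116% of all gene bodies. Among receptors, the promoter of Il9r had 60.5% in female B, 15.0% in female T, 55.6% in male B and 10.7% in male T cells (45.2 points, adjusted p = 1.05e-38, edgeR), and that of Il12rb1 66.1%, 39.7%, 58.9% and 40.8% (22.2 points). With a library left out, 2 of the 34 promoters were called without female B, 1 without male B and 0 without female T or male T. The promoter of Csf2rb, the beta chain that pairs with Il5ra, had the opposite order, with 13.4%, 33.8%, 9.16% and 29.2% (-20.2 points, adjusted p = 1.97e-10, edgeR). The body of Il2rg, the common gamma chain on the X chromosome, had 78.4% in female B, 56.4% in female T, 77.3% in male B and 9.82% in male T cells, so its difference was 22.1 points in females and 67.5 in males. This body holds 21 CpGs, with 207 reads in male B and 163 in male T cells. The promoter of Il2rg, not called between B and T cells, had 60.3%, 41.8%, 7.94% and 0% (Wilson interval up to 4.48%). It differed between the sexes (adjusted p = 1.29e-18, edgeR). So did the promoter of Il13ra1, also on the X chromosome, with 35.3%, 38.2%, 13.5% and 12.3% (adjusted p = 1.86e-14, edgeR). Over all genes 408 of 20474 promoters were called between the sexes. The body of Tgfbr2 differed by 21.3 points. Of the signalling genes, the bodies of Jak1 (81.2%, 54.9%, 82.0% and 54.5%) and Stat5b (79.6%, 60.5%, 81.3% and 59.8%) were called, by 26.9 and 20.3 points. Once levels were centred on library medians, the bodies of Tgfbr2 and Stat5b fell under the minimum. At an adjusted p under 0.05 without the 20 points, 21 of the 34 bodies were higher in B and 2, Il10rb and Socs2, higher in T, beside 39.3% and 4.41% of all gene bodies. The median difference of the 34 was 1.04 points in promoters and 4.47 in bodies, against 5.15 and 15.4 for the 10 receptor genes.

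**Figure D5:**
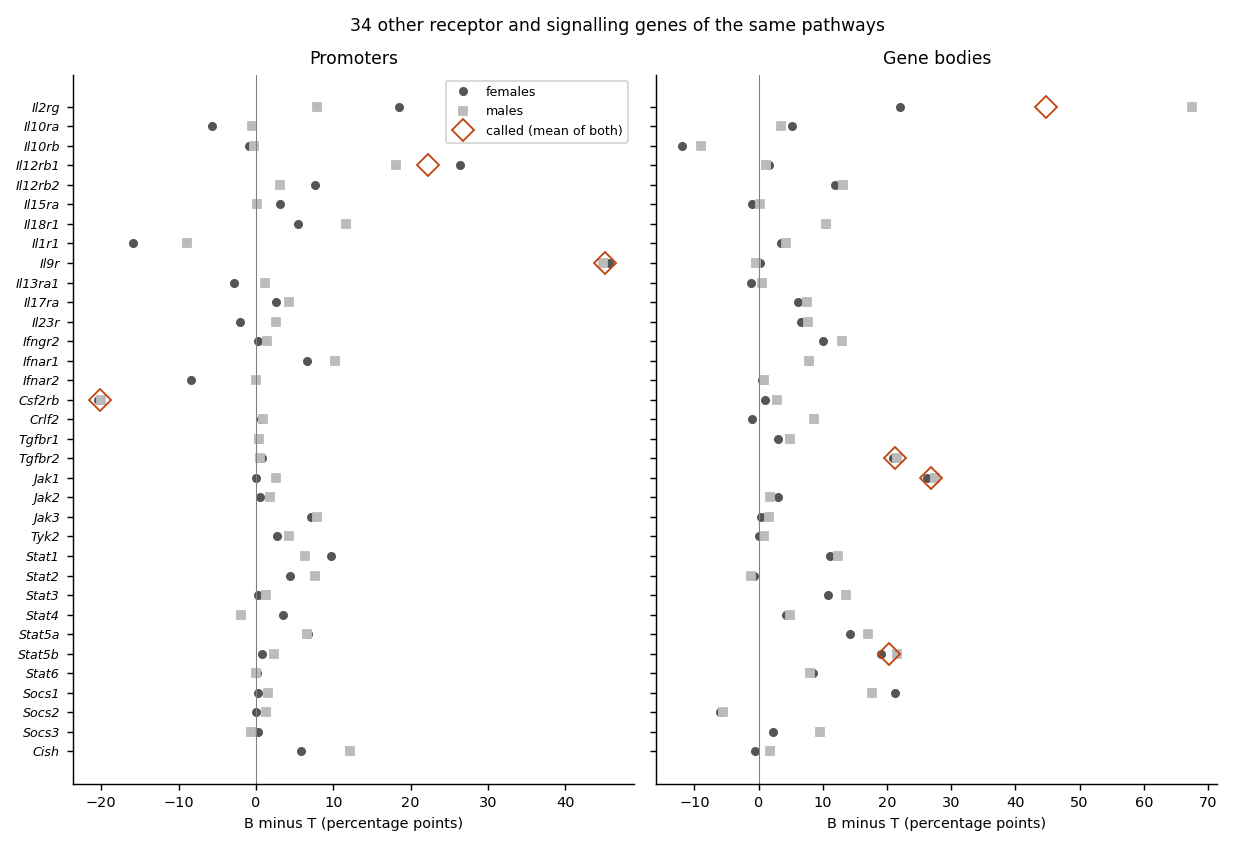
B minus T difference (percentage points, x axis) of the promoters and gene bodies of 34 other pathway genes (y axis) in females (dark circles) and males (light squares), with diamonds at the mean of called regions. Il9r and Csf2rb mark the ends of the promoter range, and Il2rg has the widest body difference and the widest gap between the sexes.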

How the data were processed

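Whole genome oxidative bisulfite sequencing of splenic B and T cells was analysed from 4 tables, 1 per group of 2 samples. Per the submitters' processing notes, reads were handled with Trim Galore, FastQC and Bismark 0.13.1 on mm10. The deposited values are a methylation fraction and a count of reads per CpG, with strands joined by the authors and CpGs under 5 reads absent. Methylated reads were recovered as whole counts, which fitted 100.0% of levels to the 3 decimals given. CpGs listed in all 4 libraries were summed per promoter, gene body, flank (9 kb upstream beyond the promoter, 10 kb downstream) and 1-kb tile, with at least 5 CpGs and 20 reads per library.

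Methylated and unmethylated counts were fitted with edgeR 4.0.16 (R 4.3.3, quasi-likelihood) with a term per library and terms for cell type and sex. With 1 library per group, the spread behind the p-values comes from how far B minus T differed between the sexes. That spread was pooled over regions, wholly for promoters, upstream flanks and tiles and mostly for gene bodies and downstream flanks. A small p-value therefore does not measure how well the sexes agreed in that region. The fits were tested on simulated data, where the adjusted p alone let through unchanged gene bodies. Alternatives were limma 3.58.1 (which recovered no changed promoter or tile on simulated data, so its calls are given no weight), other coverage, thresholds, widths and centring, and each library left out. The 10 genes, the 34 pathway genes, the markers and the tests were chosen with earlier results of these data known. Named were all 10 genes, the called tile with the largest difference per direction in each window, joined called tiles, runs of 5 or more differing CpGs, and called pathway genes. The letter patterns and printed stretches were chosen after the values were seen, and 1 further stretch is not reported here. No columns of other samples were left unused.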

Additional observations from a re-analysis of the deposited data

How the results depend on the processing

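Over the alternatives, the calls that changed most were those of promoters. Of the 10 genes, 2 promoters were called, and 1 without the sex term or with a minimum of 30 points, and leaving out 1 library, with no sex term, gave 0 to 1 (1 without female B). The 2 called with 500 bases on either side were Il2ra and Il2rb, and the 3 with 2 kb were Il2rb, Il27ra and Il5ra. The shares of all promoters called at these widths are not given here. The 3 called gene bodies became 0 at 30 points. With no minimum difference 10 promoters were called, where 17.7% of all promoters passed higher in B and 2.2% higher in T. Gene bodies gave 9, beside 39.3% and 4.41% of all gene bodies. Flanks gave 5 upstream, beside 21.2% and 3.95%, and 6 downstream, beside 22.5% and 3.82%. Tiles gave 192 higher in B and 15 higher in T, beside 7.15% and 2.17% of all tiles. Of the tiles higher in B, 2-kb tiles gave 63 (fewer tiles were tested). The same 1-kb tiles remained called in 103 to 106 of 109 cases with a library left out and in 76 with 10 reads per CpG. With 10 reads per CpG 1015072 tiles were tested in place of 1530528, so a tile could also be lost untested. For the pathway genes the alternatives were chosen after seeing the data. Their 3 promoters became 1 with 10 reads per CpG or 30 points, 15 with no minimum (13 higher in B and 2 in T, beside 17.7% and 2.2% of all promoters) and 0 to 2 with a library left out. Their 4 bodies became 2 with 10 reads per CpG or centred levels and 1 at 30 points. With no minimum they became 23 (21 higher in B and 2 in T, beside 39.3% and 4.41% of all gene bodies).

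Directions turned in 5 of the regions. The Il6st promoter went from 1.62 to -0.595 with centred levels and the Il21r promoter from 4.25 to -1.98 with 500 bases on either side. The Il2ra body went to -0.658 with 10 reads per CpG, -0.718 with centred levels and to between -0.209 (without female T) and 1.76 with a library left out. The upstream flank of Il21r went to 0.539 with unweighted CpG means and to between 0.0586 (without female T) and -2.48 with a library left out, and the downstream flank of Il5ra ranged from -1.53 (without male B) to 5.15. The causes were not tested. No paired analysis was possible because the groups share no replicate numbers. Depth limits single CpGs most, as 14 to 17 reads give steps of several points.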

Other observations

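Some parts of the windows were low in both cell types. In all, 24 of the 421 tiles were under 20% in every library, and 11 of them touched no promoter and lay outside the first 2 kb of a gene. Il21r had 2 such tiles over exons, 27.1 and 28.1 kb from the start, and 2 more past its end at 32.1 and 33.1 kb, where the last had 2.69% in female B, 2.38% in female T, 2.03% in male B and 0% in male T cells (0 of 242 reads, which allows up to 1.24%). Il4ra had one past its end, 29.4 kb from the start, with 11.5%, 6.53%, 12.4% and 4.83%, and Ifngr1 had one 21.6 kb from the start, with 10.1%, 7.02%, 6.42% and 5.96%. Il2ra had one 6.31 kb upstream of its start, with 17.9%, 14.0%, 17.8% and 12.8%. At the other end, 176 tiles were at 80% or more in every library, including 31 of 56 in the Il2ra window and 7 of 46 in that of Il21r. The shares of such low and high tiles over the genome are not given here, so these counts are description only.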
